A study of Sus scrofa with 5 samples.

Results

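The 10 genes described here are the transcriptional end of the Hippo pathway and its nearest regulators: the coactivators YAP1 and WWTR1 (the gene of TAZ), the DNA-binding factors TEAD1, TEAD2, TEAD3 and TEAD4, the angiomotins AMOT, AMOTL1 and AMOTL2, and the kinase gene LATS2. They were listed by name, with no threshold on a measured value but with earlier results of these data known, and all 10 were found among the 30029 annotated genes of the blastoid matrices and in the table of 3 pESC libraries. Blastoids are embryo-like structures that pluripotent stem cells form in culture. Here they were made from porcine embryonic stem cells (pESCs) and collected on day 6 of the protocol, when they were in iBlastoid medium. Structures with a cavity were picked by hand, pooled and dissociated, giving 2 single-cell libraries of unsorted cells. The other group is 3 bulk libraries of undifferentiated pESCs grown in 4FIXY medium on mouse embryonic fibroblast feeder cells. Their table columns are named IVFP25, PA_4P7 and PAP25. The methods do not say whether feeder cells were removed before sequencing, and the part of feeder RNA was not tested. The recipes of both media include the tankyrase inhibitor XAV939 and the ROCK inhibitor Y27632, so no group here is without them. IWR1, another WNT inhibitor, is in 4FIXY alone. CHIR99021, SB431542, BMP4, bFGF, LIF, DZNep and TSA are in iBlastoid medium alone. In the paper's 2-step protocol, cells are first kept in 4FXY medium, which is 4FIXY without IWR1, before iBlastoid medium. No genotype or age of a donor animal is stated in the labels, and the pESC lines are described in the methods as derived from parthenogenetic blastocysts, which have no paternal genome. The column name IVFP25 reads as in vitro fertilisation instead, and since the sources used here do not settle the origin of that library, the 3 may not be replicates of 1 kind of line. The endings P25, P7 and P25 read as passages, so an SD over the 3 libraries also takes in a difference of passage.

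In the Hippo pathway a kinase cascade ends in LATS1 and LATS2, which phosphorylate YAP and TAZ and so keep them out of the nucleus; unphosphorylated YAP and TAZ enter the nucleus and switch on genes through TEAD factors. Angiomotins bind YAP at the cell junctions and help LATS to act on it, and in the mouse blastocyst they hold YAP in the cytoplasm of inner cells, while in the outer, polarised cells nuclear YAP with TEAD4 turns on the trophectoderm genes Cdx2 and Gata3. Phosphorylation and location are not seen in RNA, so the values below are transcript levels alone.

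The 15367 cells (7287 in library 1 and 8080 in library 2) had medians of 29850 and 27754.5 UMIs, and the libraries shared 8 cell barcodes. Cells were grouped by the gene they expressed, and a cell belonged to a gate if it passed the threshold of exactly 1 of POU5F1, CRABP1, GABRP, TP63 and COL3A1. The gates held 2154, 790, 1937, 1764 and 1002 cells in that order, 5444 cells passed none of the thresholds and 2276 passed several, of which 1625 were positive for GABRP and TP63 together. Of 9 markers of pluripotent cells, 7 were highest in the POU5F1 gate, led by DNMT3B and UTF1 (194 and 193 CPM), and 2, ETV5 and ZIC2, in the CRABP1 gate. The 9 summed to 837 and 919 CPM in the POU5F1 gate, 541 and 568 CPM in the CRABP1 gate and 103 to 203 CPM in the other 3. SIX3 of the anterior neural plate was highest in the CRABP1 gate (266 CPM), the cytokeratin gene KRT18 in the GABRP gate (7058 CPM), and COL1A2 and DCN of mesenchyme in the COL3A1 gate (1190 and 407 CPM). Several defining markers were near 0 in every gate. KRT5 and KRT15 of surface ectoderm reached at most 0.246 and 0.612 CPM, SOX17 and FOXA2 of hypoblast at most 0.947 and 0.119 CPM, and CDX2 of trophectoderm 5.62 CPM, in the COL3A1 gate. Not all hypoblast genes were near 0. GATA6, GATA4 and NID2 were at 199.6, 81.7 and 126.9 CPM in the COL3A1 gate, and at most 12.9, 3.93 and 17.7 CPM in the others. The paper marks hypoblast-like cells by GATA6 and GATA4. APOA1 was highest in the TP63 gate (308 CPM), near its 310 CPM in empty droplets, and lowest in the POU5F1 gate (55.3 CPM). KRT18 was at 5543 CPM in empty droplets, and at 1517 to 3526 CPM in the gates other than GABRP. The part of free RNA in the levels of APOA1 and KRT18 was not tested. The gates are therefore called by their gene and given no cell type name. A level is the count of UMIs summed over the cells of a gate in 1 library, per 1000000 UMIs of that sum (CPM), so n is 2 libraries, and nothing in the labels says whether these came from separate cultures. The median depth of a cell ran from 19460.5 UMIs (COL3A1 gate, library 2) to 38410 (POU5F1 gate, library 1). DCN, which chose no gate, was at 0.888 to 1.40 CPM outside the COL3A1 gate, 4.70% to 7.43% of its level in empty droplets, and LUM, another mesenchyme gene, was at 6.10% to 11.5% of its level there.

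TEAD factors bind the DNA word GGAATG. This word and its reverse complement CATTCC were looked for in the 250 bases before the annotated start of each gene in the susScr11 genome (RefSeq annotation). None of the 10 member genes had it there, and 10.4% of 20591 protein-coding genes did (2138 genes). Among 20 well-known YAP and TEAD target genes 5 had it, namely CCN1, CCN2, ANKRD1, ASAP1 and NUAK2. The stretches of the 3 textbook targets are shown because they are the genes on which TEAD activity is usually read, with every match to the word in capitals, 5′ to 3′ on the strand of the gene.
CCN1, chr4:130395232-130395281, minus strand: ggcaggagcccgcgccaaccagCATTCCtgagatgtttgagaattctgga
CCN2, chr1:31674280-31674329, plus strand: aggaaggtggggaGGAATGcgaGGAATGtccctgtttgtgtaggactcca
ANKRD1, chr14:102612938-102612987, minus strand: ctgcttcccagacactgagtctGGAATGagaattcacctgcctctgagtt
The match nearest to the start lay 80 bases before it in CCN1, 96 in CCN2 and 108 in ANKRD1. CCN2 held 3 matches in its 250 bases and ANKRD1 held 2. A match is a word in the sequence and no binding was measured here.

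YAP1 (chr9:32811629-32924926, plus strand) was highest in the COL3A1 gate. Its level there was 224.5 CPM in library 1 and 241.7 in library 2, against 129.1 and 123.2 CPM in the POU5F1 gate, the lowest of the 5. The values of neighbouring gates in the order COL3A1, TP63, GABRP, CRABP1 and POU5F1 did not overlap. Each gate was compared with the mean of the other 4 by edgeR's quasi-likelihood test on the sums, with Benjamini-Hochberg adjustment over 18225 genes, and this is the test behind each log2 fold change and adjusted p of a gate. YAP1 was lower in the POU5F1 gate (log2 fold change -0.65 ± 0.05 SE, adjusted p = 1.5e-07) and in the CRABP1 gate (-0.50 ± 0.05, adjusted p = 3.0e-06), and it was higher in the other 3.

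WWTR1 (chr13:89742980-89889547, minus strand), whose product TAZ shares most of its partners with YAP, had another order. Its level was 137.8 and 131.9 CPM in the GABRP gate and 66.8 and 55.1 CPM in the CRABP1 gate. Between these lay the TP63 gate at 115.1 ± 7.43 CPM (mean ± SD, n = 2), and the POU5F1 and COL3A1 gates at 106.8 ± 1.82 and 105.7 ± 6.00 CPM, whose values overlapped. The log2 fold change of the GABRP gate was 0.71 ± 0.05 (adjusted p = 2.1e-07) and that of the CRABP1 gate -1.11 ± 0.07 (adjusted p = 3.4e-08). In the POU5F1 gate WWTR1 stood 0.01 ± 0.05 from the mean of the others (adjusted p = 0.85), and with doubled gate thresholds it was lower (-0.18, adjusted p = 0.030).

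**Figure D1:**
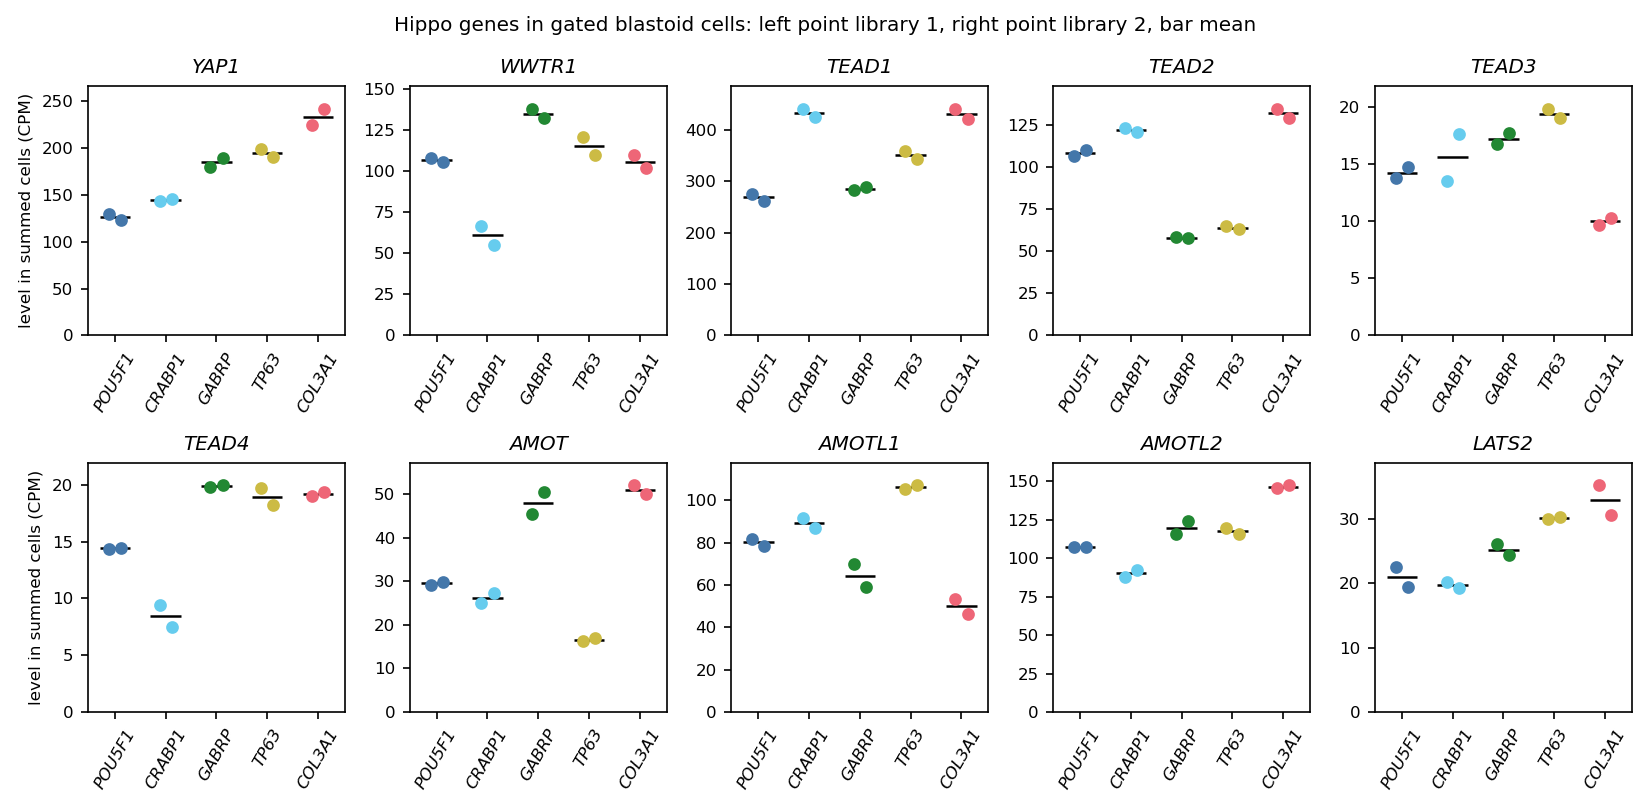
Level of each of the 10 genes in the 5 gates, in CPM of the summed cells (vertical axes start at 0); the left point of each gate is library 1, the right point library 2 and the bar their mean. AMOT spans 16.6 to 51.0 CPM between the TP63 and COL3A1 gates, and the means of AMOTL1 run in the opposite order, from 49.8 CPM in the COL3A1 gate to 106.1 CPM in the TP63 gate.

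The 4 TEAD genes, which encode the paralogous DNA-binding partners of YAP and TAZ, did not share an order. TEAD1 (chr2:46396490-46670619, minus strand) was at 440.6 and 425.0 CPM in the CRABP1 gate and at 439.8 and 420.9 CPM in the COL3A1 gate, which overlapped. Its lowest levels were 274.4 and 262.0 CPM in the POU5F1 gate (log2 fold change -0.55 ± 0.04, adjusted p = 1.3e-07).

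TEAD2 (chr6:54448183-54462325, minus strand) is the TEAD gene known for expression in the earliest embryo and in neural progenitors. It fell into a high and a low set of gates. The COL3A1, CRABP1 and POU5F1 gates had 132.3 ± 3.84, 122.1 ± 1.54 and 108.7 ± 2.51 CPM, and the TP63 and GABRP gates had 64.0 ± 1.17 and 58.2 ± 0.436 CPM. All 5 calls passed, with log2 fold changes from -0.64 in the TP63 gate to 0.72 in the COL3A1 gate.

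TEAD3 (chr7:31337890-31351452, minus strand) and TEAD4 (chr5:67130392-67167579, minus strand) had the fewest UMIs of the 10 genes over the 5 gates together. TEAD3 was at 19.9 and 19.0 CPM in the TP63 gate and at 9.66 and 10.3 CPM in the COL3A1 gate (log2 fold change -0.68 ± 0.11, adjusted p = 1.9e-04). TEAD4, the factor needed for trophectoderm in the mouse, was at 19.8 and 20.0 CPM in the GABRP gate and at 9.39 and 7.47 CPM in the CRABP1 gate. The lowest of these rests on 79 and 102 UMIs, with exact 95% binomial intervals of 7.44 to 11.7 and 6.09 to 9.07 CPM, which cover counting error alone. The TEAD4 difference of the CRABP1 gate (-1.30 ± 0.10, adjusted p = 2.6e-07) was larger than that of any other member in that gate. In the POU5F1 gate TEAD4 was slightly lower (-0.20 ± 0.07, adjusted p = 0.027), a call lost with DESeq2's test (adjusted p = 0.16), without the filter on low counts (0.11) and with halved gate thresholds (0.094). The AMOT call of the POU5F1 gate (-0.20 ± 0.06, adjusted p = 0.011) was lost with DESeq2's test, where the fold change was -0.18 (adjusted p = 0.060), and with halved thresholds, where it shrank to -0.064 (0.43). With doubled thresholds it was -0.47. Under DESeq2's test and under halved thresholds 4 members were lower in this gate, under doubled thresholds 8, and 7 with cells of several gates put in their highest. TEAD3 was called lower in the latter pair (-0.23, adjusted p = 0.019, and -0.24, adjusted p = 0.026).

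The shares of TEAD UMIs moved with the gates. TEAD2 gave 26.1% and 27.5% of the TEAD UMIs in the POU5F1 gate, 14.0% and 14.3% in the TP63 gate, and 15.5% and 15.1% in the GABRP gate. TEAD4 gave 5.25% and 5.22% in the GABRP gate, and 1.60% and 1.31% in the CRABP1 gate. These are shares of molecules counted, not levels per length, and they are compared between gates and not between genes.

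AMOT differed most between gates and is the angiomotin for which the block on YAP is best known. AMOT (chrX:92581995-92647872, minus strand) was at 52.0 and 50.0 CPM in the COL3A1 gate, 45.4 and 50.4 CPM in the GABRP gate, and 16.3 and 16.9 CPM in the TP63 gate, a 3.08-fold range of means that was the widest of the 10 genes. Its log2 fold change was 0.93 ± 0.06 in the COL3A1 gate (adjusted p = 5.5e-08), 0.94 ± 0.06 in the GABRP gate (adjusted p = 2.4e-08) and -1.16 ± 0.07 in the TP63 gate (adjusted p = 4.1e-08). Cells positive for GABRP and TP63 together, which belonged to neither gate, had 38.9 and 36.1 CPM of AMOT, between the GABRP and TP63 gates. They were not between these gates in all members. Their means lay above both for WWTR1 (162.8 CPM), YAP1 (211.1 CPM), TEAD3 (21.9 CPM) and TEAD4 (21.5 CPM). The means of TEAD1, AMOTL1 and LATS2 lay between the gates, and those of TEAD2 and AMOTL2 slightly below both. Cells that passed no gate had 17.3 and 17.4 CPM of AMOT, just above the TP63 gate.

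AMOTL1 (chr9:26811872-26978107, plus strand) encodes a relative of AMOT that also binds YAP. It was at 105.1 and 107.1 CPM in the TP63 gate and at 53.6 and 46.1 CPM in the COL3A1 gate, with log2 fold changes of 0.62 ± 0.06 (adjusted p = 3.8e-06) and -0.67 ± 0.07 (adjusted p = 4.5e-06). Over the 10 sums of library and gate, log2(CPM + 1) of AMOT and AMOTL1 had a Pearson r of -0.94, the lowest among the 45 pairs of members. The sums come from 2 libraries, so this describes the 5 gates and has no p.

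AMOTL2 (chr13:75490936-75507360, minus strand), the third angiomotin and itself a known YAP target, was at 145.8 and 147.6 CPM in the COL3A1 gate and at 88.1 and 92.6 CPM in the CRABP1 gate. LATS2 (chr11:1225523-1265970, minus strand), the kinase gene that YAP and TEAD are known to induce as a feedback, was at 35.2 and 30.7 CPM in the COL3A1 gate and at 20.2 and 19.3 CPM in the CRABP1 gate. Both were higher in the COL3A1 gate, by a log2 fold change of 0.50 ± 0.05 for AMOTL2 (adjusted p = 9.7e-07) and 0.55 ± 0.07 for LATS2 (adjusted p = 3.5e-05). Both were lower in the CRABP1 gate (-0.61 ± 0.05 and -0.63 ± 0.08). Over the 10 sums the member closest to LATS2 was YAP1 (r = 0.90), and AMOTL2 was about equally close to LATS2 (0.85), TEAD4 (0.83) and YAP1 (0.83).

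Counted over the gates, the POU5F1 and CRABP1 gates had mostly lower levels of these genes and the other 3 gates mostly higher ones. In the POU5F1 gate 1 member was higher (25.8% of all genes tested were called higher) and 6 were lower (27.9% of all genes). In the CRABP1 gate 2 were higher (20.4%) and 6 lower (20.6%). In the GABRP gate 7 were higher (27.1%) and 2 lower (22.6%). In the TP63 gate 6 were higher (21.3%) and 2 lower (20.1%), and in the COL3A1 gate 7 were higher (26.6%) and 2 lower (26.3%). The member median log2 fold change was -0.20 in the POU5F1 gate, -0.50 in CRABP1, 0.30 in GABRP, 0.23 in TP63 and 0.48 in COL3A1, where the medians over all genes tested ran from -0.03 to 0.0014. With halved gate thresholds the member medians were -0.12, -0.43, 0.18, 0.20 and 0.51 in that order. Each gate's comparison uses the sums of the other gates, so the 5 are not independent. With the library as a replicate block, WWTR1 of the COL3A1 gate (0.14 ± 0.06, adjusted p = 0.056 without the block) was called too, at an adjusted p of 0.011. It was also called with halved thresholds (0.20, adjusted p = 0.0072), without likely doublets (0.17, 0.042) and with a minimum of 5000 UMIs (0.17, 0.020), and it was 0.06 with doubled thresholds (0.46).

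The POU5F1 gate held cells with and without GATA3, a trophectoderm gene that YAP and TEAD4 are known to control in the mouse. Cells with GATA3 had at least 3 UMIs and 100 CPM of it, and those without were below this, not at 0. GATA3 averaged 204.7 CPM with and 31.5 CPM without. Cells with GATA3 (1030 of the 2154) had a higher level of 8 of the 10 members than cells without (16.7% of the 16148 genes tested were called higher), and 1 member, TEAD2, was lower (16.8%). AMOT was at 40.5 and 46.6 CPM in cells with GATA3 and at 16.7 and 16.4 CPM in cells without, a log2 fold change of 1.45 ± 0.09 (adjusted p = 6.2e-07), and the groups did not overlap. The level with GATA3 was thus close to that of the GABRP gate, and the level without GATA3 close to that of the TP63 gate.

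WWTR1 was at 132.5 and 146.7 CPM with GATA3 and at 81.2 and 72.2 CPM without (0.92 ± 0.07, adjusted p = 3.0e-06). YAP1 was at 157.5 and 154.7 CPM with GATA3 and at 97.8 and 97.7 CPM without (0.72 ± 0.05, adjusted p = 1.6e-06). The YAP1 level of cells without GATA3 was below that of each of the 5 gates. TEAD2 went the other way, at 83.4 and 80.4 CPM with GATA3 and 132.9 and 134.8 CPM without (-0.66 ± 0.05, adjusted p = 4.1e-06).

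The remaining differences of this split were smaller. TEAD1 (0.35 ± 0.05), LATS2 (0.36 ± 0.10), TEAD4 (0.29 ± 0.10), AMOTL1 (0.28 ± 0.06) and AMOTL2 (0.26 ± 0.06) were higher with GATA3, with adjusted p from 2.3e-04 to 0.037. The TEAD4 call was lost with DESeq2's test (0.30, adjusted p = 0.23), with doubled thresholds (0.27, adjusted p = 0.10) and with halved ones (0.16, adjusted p = 0.21). The LATS2 call was lost with DESeq2's test (0.35, adjusted p = 0.077). TEAD3, at 14.2 and 16.1 CPM with GATA3 and 13.3 and 13.7 CPM without, did not pass (0.21 ± 0.11, adjusted p = 0.14), and was called with halved thresholds (0.31, adjusted p = 0.041).

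Levels of other marker genes are given beside this split. The de novo methyltransferase gene DNMT3B, a marker of the pluripotent epiblast, was at 53.1 CPM on average with GATA3 and at 324 CPM without, and POU5F1 itself at 249.97 and 434.5 CPM. GABRP was at 28.9 CPM with GATA3 and 39.5 CPM without, VTCN1 at 1.35 and 1.40 CPM, HEY1 at 5.80 and 5.01 CPM, ISL1 at 11.2 and 5.28 CPM, and TFAP2A at 264 and 90.1 CPM. The part of these genes and of depth in the members' differences was not tested. The median depth was 36864 and 33559 UMIs per cell with GATA3, and 40700 and 36081 without. When each cell was thinned to 10000 UMIs, 29.4% of cells with GATA3 and 12.9% of cells without had a UMI of AMOT (56.7% and 32.5% before thinning), and the TP63 gate had 13.5% (29.8% before thinning). Without the cells that Scrublet scored highest as doublets, 8 members were still higher and 1 lower.

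**Figure D2:**
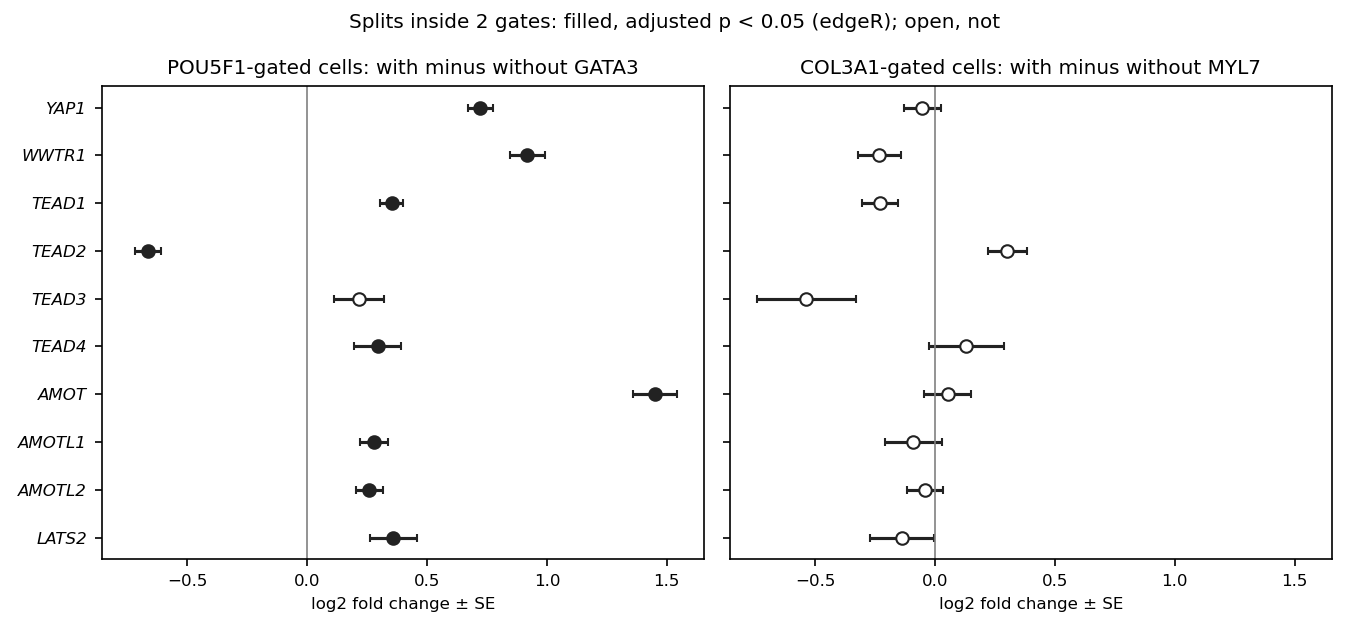
Log2 fold change ± SE (edgeR) of the 10 genes in POU5F1-gated cells with against without GATA3 (left) and in COL3A1-gated cells with against without MYL7 (right), both on the same scale; filled points passed an adjusted p of 0.05. On the left 9 points are filled and AMOT is farthest from 0 at 1.45, and on the right none is filled.

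COL3A1-gated cells were split in the same way by MYL7, a myosin light chain gene of the atrial heart (384 cells with and 618 without). MYL7 averaged 580.5 CPM with and 32.3 CPM without. No member was called higher (1.16% of the 13378 genes tested were) or lower (0.762%) by edgeR or by DESeq2, where over all genes 257 passed with edgeR and 1685 had an unadjusted p under 0.05. AMOT was at 52.0 and 51.2 CPM with MYL7 and 52.0 and 49.3 CPM without, a log2 fold change of 0.05 ± 0.10. TEAD2, at 153.9 and 142.1 CPM with MYL7 and 122.2 and 123.4 CPM without (0.30 ± 0.08, adjusted p = 0.11), and TEAD1, at 401.6 and 363.5 against 465.5 and 449.3 CPM (-0.23 ± 0.07, adjusted p = 0.18), were called with the library as a replicate block (adjusted p = 0.018 and 0.033), where 779 genes passed in all.

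The kinases of the pathway and the genes upstream of them, from STK3, STK4 and LATS1 to the adaptors and cadherins, were counted from a list of 19. In the POU5F1 gate 2 were higher and 12 lower, in CRABP1 6 and 6, in GABRP 8 and 4, in TP63 10 and 7, and in COL3A1 8 and 8. The POU5F1 counts are 10.5% higher and 63.2% lower, where 25.8% and 27.9% of all genes were called, and in the GABRP gate 42.1% were higher beside 27.1%, and 21.1% lower, near the 22.6% over all genes. In CRABP1 the 31.6% in each direction stood beside 20.4% and 20.6% over all genes, in TP63 52.6% and 36.8% beside 21.3% and 20.1%, and in COL3A1 42.1% each way beside 26.6% and 26.3%. FAT4 and DCHS1, giant cadherins that signal to the pathway between neighbouring cells, were highest in the COL3A1 gate at 60.1 and 44.9 CPM (log2 fold changes 3.88 ± 0.11 and 1.38 ± 0.08), and so was the FERM protein gene FRMD6 (1.53 ± 0.07). WWC1, the gene of KIBRA, was lower in that gate (-1.78 ± 0.14), at 21.4 CPM, and was at 92.8 and 90.0 CPM in the GABRP and TP63 gates. WWC3 of the same family was higher in the GABRP gate (1.34 ± 0.05) and lower in the CRABP1 gate (-1.52 ± 0.08). In the GATA3 split 7 of the 19 were higher (36.8%, beside 16.7% of all genes) and 2 lower (10.5%, beside 16.8%), and in the MYL7 split none was called, where 1.16% and 0.762% of all genes were.

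Of 10 partners of TEAD and YAP, 9 were tested in the gates. VGLL1 and VGLL3 encode Vestigial-like proteins, which bind TEAD in place of YAP. VGLL3 was at 47.3 CPM in the GABRP gate and 6.62 to 17.4 CPM in the other 4 (log2 fold change 2.204 ± 0.08, adjusted p = 3.2e-10), and VGLL1 was at 4.96 CPM in the GABRP gate (2.50 ± 0.19). VGLL3 was also higher in POU5F1-gated cells with GATA3 (1.18 ± 0.14, adjusted p = 6.6e-05). The LIM protein gene AJUBA, an inhibitor of LATS, was higher in the TP63 gate (0.82 ± 0.06), and RUNX1 in the COL3A1 gate (2.87 ± 0.14). Higher and lower partners numbered 1 and 6 in the POU5F1 gate, 2 and 5 in CRABP1, 6 and 2 in GABRP, 3 and 2 in TP63, 4 and 5 in COL3A1, and 3 and 1 in the GATA3 split. As shares, 11.1% were higher and 66.7% lower in the POU5F1 gate (25.8% and 27.9% of all genes), 22.2% and 55.6% in CRABP1 (20.4% and 20.6%), 66.7% and 22.2% in GABRP (27.1% and 22.6%), 33.3% and 22.2% in TP63 (21.3% and 20.1%), and 44.4% and 55.6% in COL3A1 (26.6% and 26.3%). In the GATA3 split they were 33.3% and 11.1% (16.7% and 16.8%). In the MYL7 split 7 could be tested and none was called, where 1.16% of all genes were higher and 0.762% lower.

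A list of 20 YAP and TEAD target genes, members left out, was followed through the same comparisons. Whether these genes respond to YAP or TEAD in these pig cells was not tested. In the POU5F1 gate 1 target was higher and 16 were lower, with a median log2 fold change of -0.73 against -0.03 over all genes. In the CRABP1 gate 2 were higher and 11 lower (median -0.30). In the other gates more were higher than lower, with 12 and 2 in GABRP (median 0.29), 9 and 4 in TP63 (0.10), and 12 and 5 in COL3A1 (0.80). Over all genes 25.8% were called higher and 27.9% lower in the POU5F1 gate, 20.4% and 20.6% in CRABP1, 27.1% and 22.6% in GABRP, 21.3% and 20.1% in TP63, and 26.6% and 26.3% in COL3A1. The 4 of 20 targets called lower in TP63 and the 5 of 20 in COL3A1 thus lay near the shares of all genes.

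CCN1, the matricellular protein gene printed above, was at 298 CPM in the COL3A1 gate and at 59.3 CPM in the POU5F1 gate (log2 fold changes 2.01 ± 0.09 and -1.04 ± 0.11). ANKRD1, the gene of an ankyrin repeat protein of muscle, was at 17.7 CPM in the GABRP gate and at 0.613 CPM in the CRABP1 gate (2.63 ± 0.17 and -3.85 ± 0.39). CCN2 was at 1.51 to 3.48 CPM over the gates, under the row named CTGF, and was called higher in the COL3A1 gate (0.95 ± 0.17). Another row, named CCN2, was at 0 CPM in every gate. In pESCs CCN2 had a mean of 18.0 FPKM and CCN1 one of 14.3 FPKM. How fully the UMIs of CCN2 were counted was not tested, so its low CPM is not read as a silent gene. The largest rises of the COL3A1 gate were FOXF2 (4.02 ± 0.20), RBMS3 (3.70 ± 0.07) and TGFB2 (3.56 ± 0.15). FOXF2 encodes a forkhead factor of mesenchyme. In the GABRP gate they were IGFBP3 (2.70 ± 0.17), ANKRD1 and GADD45A (1.28 ± 0.06), and in the TP63 gate IGFBP3 (1.69 ± 0.18), MYOF (1.41 ± 0.05) and PTPN14 (1.16 ± 0.06). The largest falls of the TP63 gate were RBMS3 (-1.99 ± 0.11), TGFB2 (-1.26 ± 0.20) and FOXF2 (-1.22 ± 0.30). In the COL3A1 gate they were IGFBP3 (-1.37 ± 0.32), MYOF (-0.64 ± 0.06) and ASAP1 (-0.62 ± 0.05), and in the GABRP gate FOXF2 (-1.04 ± 0.30) and RBMS3 (-0.29 ± 0.09). In the CRABP1 gate ANKRD1, IGFBP3 (-2.64 ± 0.36) and MYOF (-1.92 ± 0.07) fell most, and CCDC80 (0.44 ± 0.10) and FJX1 (0.37 ± 0.12) were higher. ASAP1 was the target called higher in the POU5F1 gate (0.77 ± 0.04), and CCDC80, at -2.80 ± 0.11, was the lowest there.

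In POU5F1-gated cells with GATA3, 8 of the 20 targets were higher (40.0%, beside 16.7% of all genes) and 3 lower (15.0%, near the 16.8% of all genes) than in cells without. GADD45A (1.26 ± 0.06), IGFBP3 (1.11 ± 0.30) and MYOF (0.93 ± 0.05) led the higher ones, and NT5E (-1.78 ± 0.54), AXL (-1.32 ± 0.20) and RBMS3 (-0.27 ± 0.08) were the lower ones. In the MYL7 split ANKRD1 (1.84 ± 0.36, adjusted p = 0.029) and TGFB2 (0.44 ± 0.09, adjusted p = 0.036) were higher with MYL7. They were 11.1% of the 18 targets that could be tested, beside 1.16% of all genes. No target was lower, where 0.762% of all genes were.

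**Figure D3:**
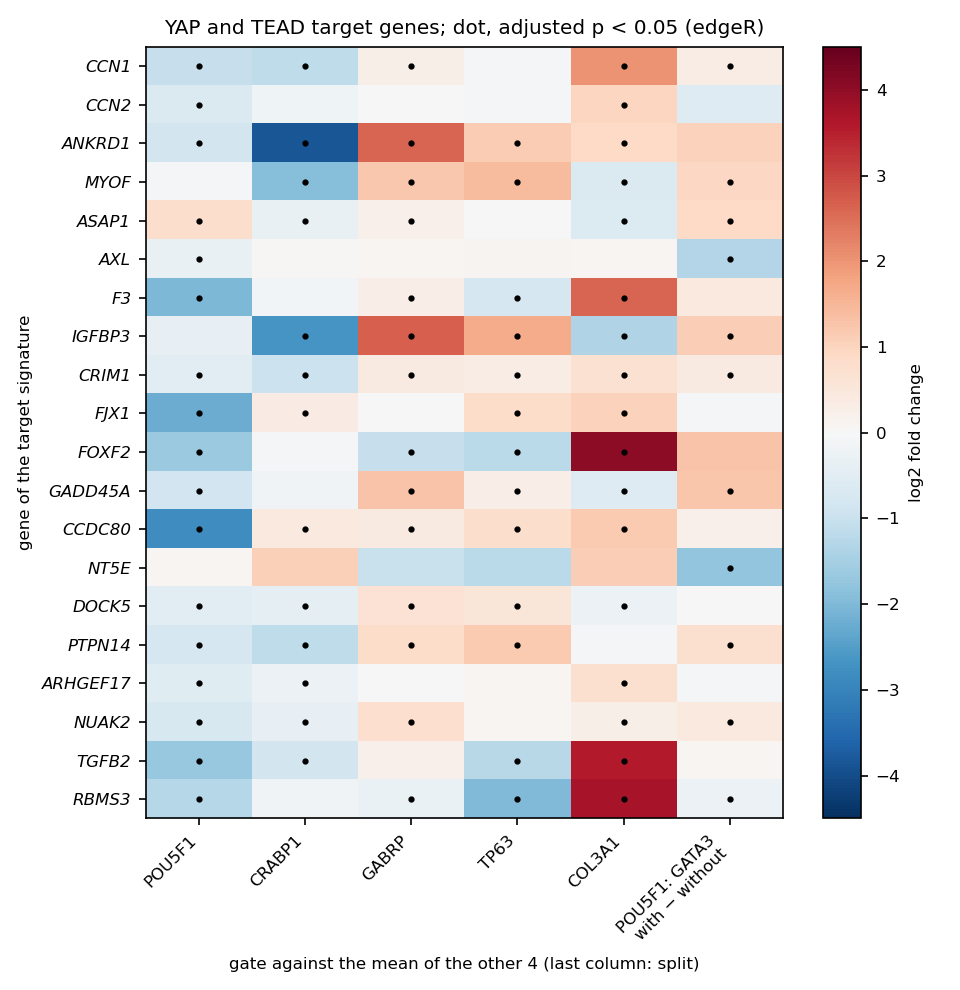
Log2 fold change (colour) of the 20 target genes in each gate against the mean of the other 4, with the GATA3 split of the POU5F1 gate in the last column; a dot marks an adjusted p under 0.05 (edgeR). The POU5F1 column holds 16 genes called lower, and FOXF2, RBMS3 and TGFB2 are the 3 highest values of the COL3A1 column.

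Among 10 trophectoderm genes, of which GATA3 and CDX2 are known TEAD4 targets in the mouse, 8 were higher and 1 lower in the GABRP gate. The leading ones were HAND1 (2.59 ± 0.12), ELF5 (2.03 ± 0.07) and KRT18 (1.82 ± 0.06), and CDX2, at 0.931 CPM, did not pass (adjusted p = 0.19). HAND1, also a gene of extraembryonic mesoderm, was higher still in the COL3A1 gate, at 711.7 CPM against 229.6 CPM in the GABRP gate, and it led the 3 genes called higher there (4.49 ± 0.12), before CDX2 (3.60 ± 0.27) and EOMES (3.07 ± 0.24). In the TP63 gate 7 were higher and 3 lower, in the POU5F1 gate 4 and 3, in COL3A1 3 and 7, and in CRABP1 1 and 7, to be read beside the shares of all genes given with the targets. The 30.0% lower in the POU5F1 gate and the 30.0% higher in the COL3A1 gate lay near the 27.9% and 26.6% of all genes. In the GATA3 split 9 were higher (16.7% of all genes), GATA3 by construction. EOMES was lower (-2.39 ± 0.32), where 16.8% of all genes were. CDX2 was called higher with GATA3 (1.68 ± 0.38), at 1.45 CPM against 0.448 CPM. In the MYL7 split GATA2 and GATA3 were lower (20.0%, beside 0.762% of all genes) and none was higher, where 1.16% of all genes were.

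In pESCs the levels of the members can be compared with each other, since FPKM is per transcript length. TEAD2 was at 116.3, 104.5 and 96.8 FPKM in IVFP25, PA_4P7 and PAP25 (mean percentile 97.0 among the genes above 0 in a library), and the highest of the 10 genes in all 3 libraries. TEAD3 was at 35.2 ± 5.78 FPKM (mean ± SD, n = 3), TEAD4 at 22.1 ± 3.53 and TEAD1 at 9.80 ± 2.17. TEAD2 thus made up 64.9%, 61.0% and 57.4% of the TEAD total, and TEAD1 4.48%, 5.34% and 7.25%. In bulk libraries, fewer expressing cells and less RNA per cell cannot be told apart.

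YAP1 was at 16.1, 25.4 and 17.8 FPKM in the pESC libraries and WWTR1 at 4.66, 3.83 and 3.33 FPKM, so that no YAP1 value overlapped a WWTR1 value. AMOTL2 was at 39.9 ± 9.02 FPKM and AMOTL1 at 22.01 ± 5.69. AMOT was at 6.52, 6.70 and 10.4 FPKM and LATS2 at 6.87 ± 0.939 FPKM. Of the neighbours in the order TEAD2, AMOTL2, TEAD3, TEAD4, AMOTL1, YAP1, TEAD1, AMOT, LATS2 and WWTR1, the values of AMOTL2 and TEAD3, of TEAD4, AMOTL1 and YAP1, and of TEAD1, AMOT and LATS2 overlapped. Between libraries a member varied 1.201-fold (TEAD2) to 1.70-fold (AMOTL1).

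The pESC libraries were not alike in the genes named above. GATA3 was at 0.339 and 0.122 FPKM in IVFP25 and PA_4P7 and at 3.97 FPKM in PAP25. Of the members, TEAD1, TEAD3, AMOT, AMOTL1 and LATS2 were highest in PAP25, WWTR1, TEAD2, TEAD4 and AMOTL2 were lowest there, and YAP1 lay between its other values. CDX2 was at 0 to 0.125 FPKM. With 1 group, no comparison of conditions can be made in these 3 libraries.

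**Figure D4:**
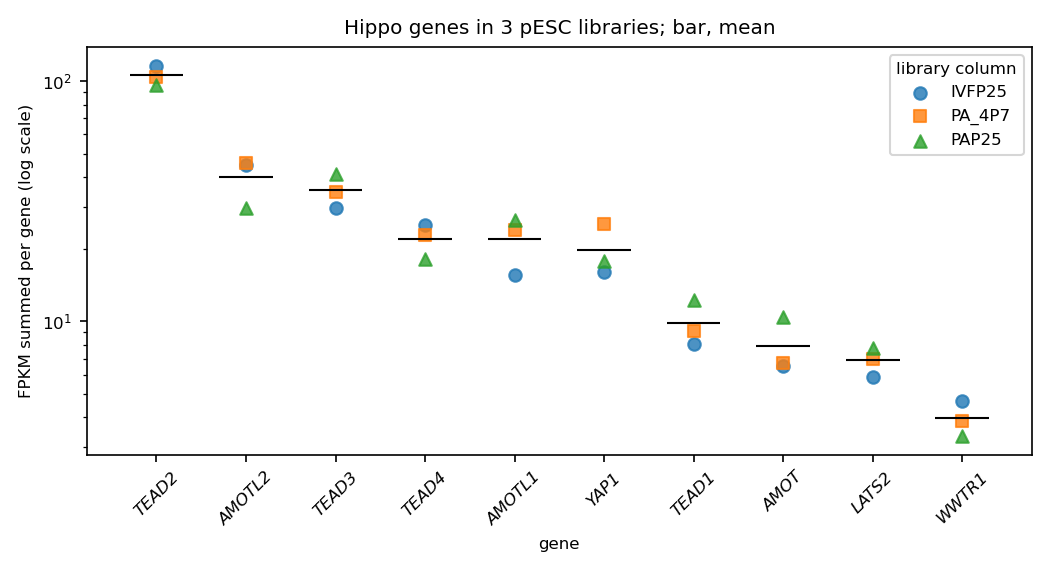
FPKM of the 10 genes in the 3 pESC libraries (log axis), summed over the transcripts of a gene; symbols are the library columns and bars the means. TEAD2 lies at 96.8 to 116.3 FPKM and WWTR1 at 3.33 to 4.66 FPKM.

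UMI counts gave another order of the members than FPKM. TEAD1 had 268.2 CPM in the POU5F1 gate and 9.80 FPKM in pESCs, and WWTR1 had 106.8 CPM and 3.94 FPKM, or 27.4 and 27.1 CPM per FPKM. TEAD3 had 14.2 CPM and 35.2 FPKM, or 0.405 CPM per FPKM. The median over 11015 genes at 1 or more on both scales was 2.48 CPM per FPKM. This ratio moved with the stretch of genome that a gene spans. Its median was 1.89 for the 4418 genes under 20 kb, 2.44 for 4771 genes of 20 to 100 kb and 6.21 for 1826 genes of 100 kb or more, and Spearman's rho of ratio and span was 0.40 across genes, which are not independent. TEAD1 spans 274130 bp and WWTR1 146568 bp, TEAD2 14143 bp and TEAD3 13563 bp. The cells, the assays and the normalizations differ as well, and the part of the span in the order was not tested, so UMI levels are compared here between gates and not between genes.

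**Figure D5:**
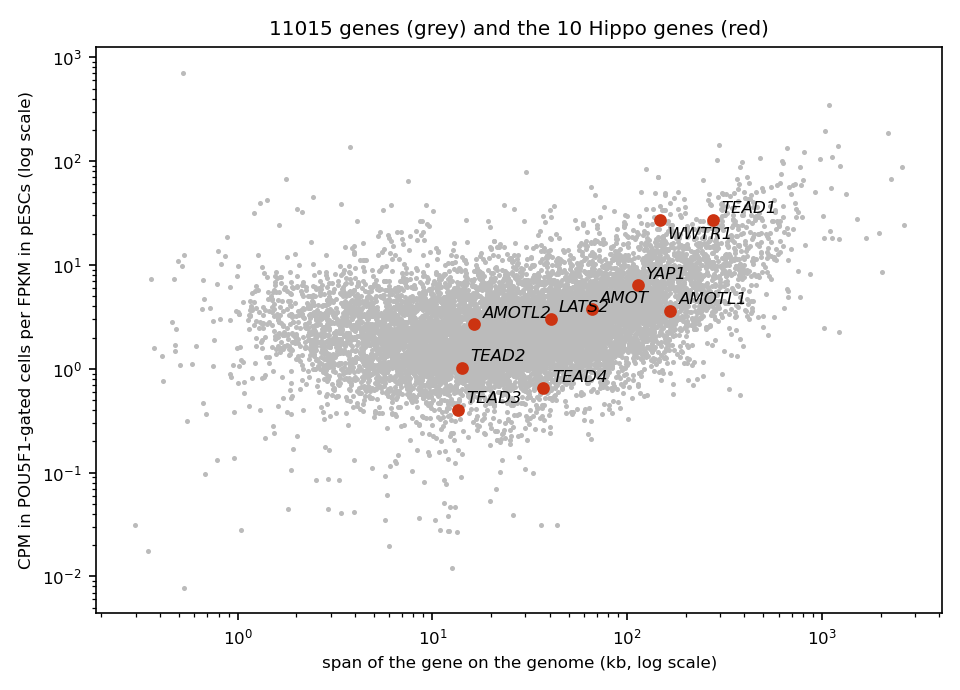
CPM in POU5F1-gated cells divided by mean FPKM in pESCs against the genomic span of the gene in kb, both on log axes, for 11015 genes (grey) and the 10 members (red). TEAD1 and WWTR1 lie near 27 CPM per FPKM at spans over 100 kb, and TEAD3 lies at 0.405.

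Beyond the lists, the genes whose log2(CPM + 1) over the 10 sums was most like a member's were picked among 9571 genes with a mean of at least 10 CPM. For LATS2 they were WWC2 (r = 0.97), WIPF1 (0.96) and CRIM1 (0.96), of which WWC2 is on the upstream list and CRIM1 on the target list. For YAP1 they were LAMC1, a laminin chain gene (0.99), BCL7C (0.99) and the cell cycle kinase gene CDK6 (0.99). For TEAD2 they were AKR1A1, EFNA2 and STK38L (0.99 each), the last of which encodes a kinase related to LATS. For AMOT they were LGMN (0.99), FKBP2 (0.99) and GABARAPL2 (0.98), and for AMOTL1 RNF130, SIK2 and BTRC (0.98 to 0.97). For TEAD1 they were EPC1, IFT46 and HSF2, for WWTR1 POLR1D, SGPP1 and SLC25A6, for TEAD3 TM7SF2, SMOX and SLC35B3, for TEAD4 APH1B, MRPS6 and RPLP2, and for AMOTL2 MAP3K20, MCUB and ADAMTS18, with r from 0.96 to 0.99. With 5 gates in 2 libraries many genes reach such an r, so these values have no p and describe the gates.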

How the data were processed

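The members, gene lists and tests were chosen with earlier results of these data known. The deposited single-cell matrices hold raw UMI counts of all barcodes, which the authors made with Cell Ranger 7.1.0 on susScr11. The deposited FPKM table was made by the authors with Trim Galore 0.6.4, HISAT2 2.2.1 and StringTie 2.2.1, and its transcripts were summed per gene symbol. Its columns could not be tied to single pESC samples. Depth of these libraries is unknown.

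Barcodes from 11223 and 9807 UMIs upward were kept (an order-of-magnitude rule), if they had 200 genes or more and were not over 5 MAD above the median in mitochondrial share. Totals were 289452283 and 302211552 UMIs. A gate needed 3 UMIs and 100 CPM (POU5F1, TP63, GATA3 and MYL7) or 200 CPM (CRABP1, GABRP and COL3A1). Scrublet's own threshold marked 1 and 0 cells, so doublets stayed in and the 425 and 522 highest-scored cells were left out as an alternative. UMIs were summed per library and gate and tested with edgeR 4.0.16 (TMM, filterByExpr, quasi-likelihood test, adjusted p under 0.05), after a test on simulated data, and SE is the log2 fold change divided by the root of F. P-values measure the spread between these 2 libraries. Sums of a library share its suspension, and for the sums of the 5 gates the deviations from the gate means correlated at 0.048 to 0.19. This correlation was not computed for the GATA3 and MYL7 splits. Named were all members, and up to 3 called genes each way per list; markers, the free RNA genes, CCN1, CCN2 and CDX2 were named besides, as were genes beside the GATA3 split, after their values were seen. CCN1 and CCN2 are the rows CYR61 and CTGF. KRT14 had no row.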

Additional observations from a re-analysis of the deposited data

How the results depend on the processing

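Alternatives were other size factors, DESeq2's test, no filter on low counts, a replicate block of library, doubled and halved gate thresholds, cells of several gates put in the highest, no mitochondrial limit, cells without likely doublets and a minimum of 5000 UMIs. Of 700 tested values of members 669 kept direction and side of the threshold, 12 were no longer called, 11 were newly called and 8 changed sign; none of the 8 had been called. They were, in the POU5F1 gate, WWTR1 at -0.18 (doubled thresholds, called at an adjusted p of 0.030) and -0.068 (several gates), and AMOTL1 at -0.10 and -0.040; in the CRABP1 gate TEAD3 at 0.0040 (halved thresholds); and in the MYL7 split AMOT at -0.035 and AMOTL1 at 0.049 (without doublets) and AMOTL2 at 0.036 (doubled thresholds). In the GABRP gate the TEAD1 call (-0.16) was lost with doubled thresholds (-0.079). The LATS2 call (0.19) was lost with DESeq2's test (0.18) and halved thresholds (0.11). In the GATA3 split 5409 genes were called, 3519 with DESeq2's test and 7150 with the replicate block. In the MYL7 split 257 were, against 147 with DESeq2's test, 139 with halved thresholds, 752 without the filter and 779 with the replicate block; 2 members, TEAD1 and TEAD2, were called in the latter pair. The cause was not tested. With the replicate block no other call of a member changed than those and WWTR1 of the COL3A1 gate, which halved thresholds, leaving out likely doublets and a minimum of 5000 UMIs also called. Without 1 library no test was possible, since no residual degrees of freedom remain; of 140 such values 87 moved by less than 1 SE and 53 by more. A change of sign was seen in 5, none of them called with both libraries: TEAD3 of the CRABP1 gate (0.068), AMOTL2 of the TP63 gate (-0.0012), WWTR1 of the POU5F1 gate (-0.033), and YAP1 (0.032) and TEAD4 (-0.045) of the MYL7 split. Low counts limit the precision of TEAD3 and TEAD4, as for the 79 and 102 UMIs of TEAD4 in the CRABP1 gate.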
